A study of Mus musculus with 12 samples.

Results

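The IL-4 receptor axis of splenic B cells was followed through 9 genes: the receptor chains Il4ra, Il13ra1, Il2rg and Il21r, the transcription factor Stat6, the low-affinity IgE receptor Fcer2a (CD23), the secreted amino acid oxidase Il4i1, and the feedback inhibitors Socs1 and Cish. Members were the gene probes of the array that carry 1 of these 9 gene names, which gave 12 probes of 55681 and 9 of the 34821 gene names on the array. The 12 one-colour microarrays, 3 in each of 4 groups, held B cells from the spleen of female Balb/c mice. Control mice were compared with mice exposed to house dust mite (HDM), and within each kind of mouse, cells that secreted IL-10 were compared with cells that did not. All 4 groups shared the culture: 2 days with a CD40 agonist, and LPS for the last 5 hours, followed by an IL-10 secretion assay and a flow cytometry sort. The groups were IL-10+ control, IL-10+ HDM, IL-10- control and IL-10- HDM, and the labels name no IL-4 in the culture. The mice's age was not given in the sources used here. Nor was it stated whether the 3 arrays of a group stand for different animals, so the spread behind each p-value may be technical.

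IL-4 binds IL-4Rα, which pairs with the common gamma chain Il2rg to form the type I receptor of lymphocytes, or with Il13ra1 to form the type II receptor that also binds IL-13. The receptor-bound kinases JAK1 and JAK3 phosphorylate STAT6, which dimerises and switches on genes such as Fcer2a and Il4ra itself. In B cells this pathway drives class switching to IgE and IgG1 and raises CD23 and MHC class II, and SOCS1 and CIS, the Cish product, limit cytokine signalling. IL-21, whose receptor also uses the common gamma chain and which signals mainly through STAT3, acts on the same B cells and moderates the switch to IgE.

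Stat6 was measured by 3 probes that start at bases 300, 2354 and 3450 of its transcript, and Il4ra by 2 probes that start at bases 466 and 5027. The other genes had 1 probe each. The Il4ra probe at base 466 and the Stat6 probes at bases 300 and 2354 are shown, because the readings of these genes differed between probes. They were read from the deposited scanner files, with positions on mouse build mm9: chr7:132712550-132712609 on the plus strand for Il4ra, and chr10:127083983-127084042 and chr10:127095694-127095753 on the plus strand for Stat6. No part is capitalised.
Il4ra base 466: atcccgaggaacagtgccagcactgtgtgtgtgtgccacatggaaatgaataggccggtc
Stat6 base 300: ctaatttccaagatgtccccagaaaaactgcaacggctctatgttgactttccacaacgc
Stat6 base 2354: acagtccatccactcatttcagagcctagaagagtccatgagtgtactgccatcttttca

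STAT6 dimers bind TTC and GAA separated by 4 bases, here called the N4 motif, while STAT5 and most other STATs bind the same ends separated by 3 bases, the N3 motif. All 9 genes matched RefSeq promoter windows of 300 bases (build GRCm38.p6, 250 bases before to 50 after an annotated start), Fcer2a with 3 windows. Both motifs read the same on either strand by their letters, and they cannot match at the same start. The N4 motif was in 6.95% of all 32851 promoter windows and the N3 motif in 8.3%. Among the members only 1 window of Fcer2a and the window of Cish held a match. The 30 bases around each are shown with the motif in capitals, since Fcer2a is the classical STAT6 target and Cish the classical STAT5 target of the set. The Fcer2a stretch lies at chr8:3691010-3691039 on the minus strand, with the N4 motif starting 168 bases upstream of that start. The Cish stretch lies at chr9:107296654-107296683 on the plus strand, with 2 matches to the N3 motif, the last starting 11 bases after the first transcribed base.
Fcer2a: agagggtgaaTTCCCAAGAAgggccaggag
Cish: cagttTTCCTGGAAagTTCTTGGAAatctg

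Levels are on a log2 scale on which 0 is the 75th percentile of an array's processed signals and a difference of 1 is a doubling. Because probes differ in how brightly they bind, levels are compared between groups and never between genes. A probe entered the tests when the scanner marked it well above background on at least 3 of the 12 arrays. This kept 37649 probes, among them 11 of the 12 member probes; the Il13ra1 probe was above background on 2 arrays and was not tested. All tests were limma's, with Benjamini-Hochberg adjustment over the 37649 probes, and a probe was called at an adjusted p under 0.05.

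The sorted cells carried the B cell markers in every group, with 6 or 7 of 7 listed markers above background on each array. Some markers listed for other cell types were also above background on all 12 arrays: 5 of 7 for T cells (Cd3e, Cd4, Cd8a, Cd5 and Lck), 1 of 4 for NK cells (Ncr1), 2 of 5 for monocytes and macrophages (Itgam and Csf1r) and 2 of 4 for dendritic cells (Flt3 and Siglech). Klrk1, Itgax, Clec9a, S100a8 and Cpa3 were above background on 0 arrays. The arrays lay on 2 slides: slide 1 held all IL-10+ arrays and IL-10- control 1 and 2, and slide 2 held IL-10- control 3 and the 3 IL-10- HDM arrays. IL-10- HDM array 3 stood apart. Its mean correlation with the other arrays was 0.742, against 0.841 to 0.879, and 47.7% of its spots were above background, against 51.6% to 62.4%. Where dropping it turned a difference named here or moved it by over 1.5 times, the value without it is given beside.

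No member probe was called for HDM against control in either sort. In IL-10+ cells 0 of 11 member probes were called by limma, where 0.00531% of all probes were, and 0 had an unadjusted p under 0.05, where 2.18% of all probes did. In IL-10- cells 0 of 11 were called, where 0.0717% of all probes were, and 2 had an unadjusted p under 0.05, where 9.4% of all probes did: Il21r and the 3′ probe of Stat6. The arrays of HDM and control did not overlap for 1 of 11 member probes in IL-10+ cells, where this held for 9.73% of all probes, and for 2 of 11 in IL-10- cells, where it held for 12.2%. Taking the leading probe of each gene, the eligible probe with the highest mean, 3 of 8 genes were above control in HDM in IL-10+ cells, with a median log2 difference of -0.10 beside 0.08 over all probes. In IL-10- cells 3 of 8 were above control, with a median of -0.09 beside -0.10 over all probes.

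**Figure D1:**
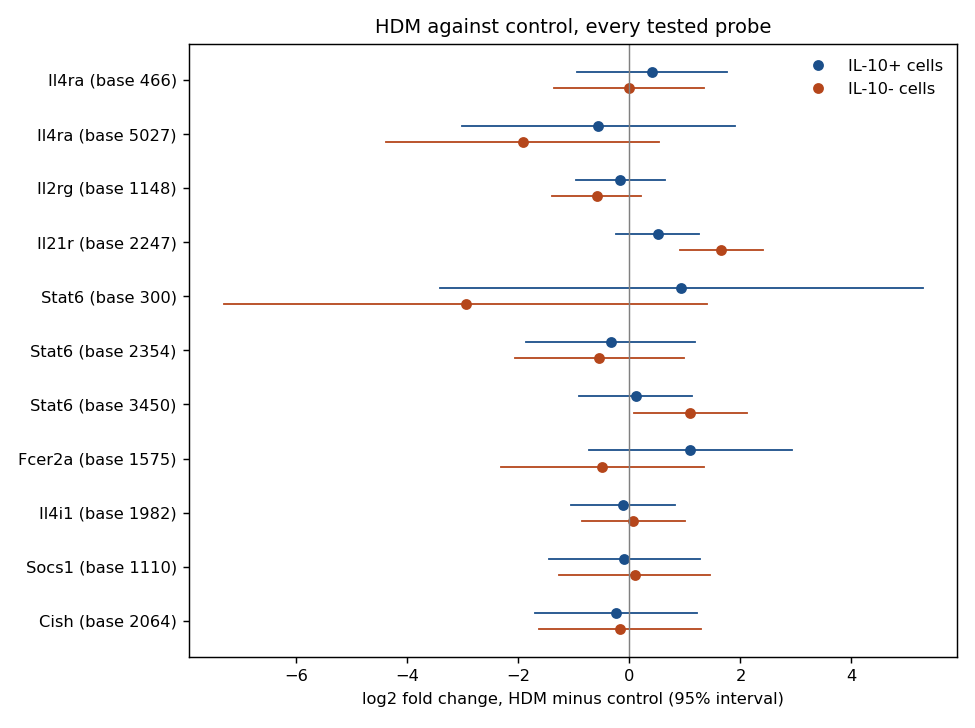
Log2 fold change of HDM over control for the 11 tested member probes, labelled by gene and by the transcript base at which the probe starts, in IL-10+ cells (blue) and IL-10- cells (red). Points are estimates and lines 95% intervals from limma over all 12 arrays; only the intervals of Il21r (0.91 to 2.40) and of the 3′ probe of Stat6 (0.09 to 2.12), both in IL-10- cells, lie to the right of 0. Cish was above background on 3 of the 12 arrays, so its points have no exact value.

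Il4ra, the chain that binds IL-4, differed little between the groups at its leading probe, and its intervals were wide. Its level was 3.33, 3.49 and 2.70 in IL-10+ control, 3.72, 3.32 and 3.69 in IL-10+ HDM, 2.41, 3.75 and 3.87 in IL-10- control, and 3.32, 2.17 and 4.52 in IL-10- HDM. The highest and the lowest of the 12 arrays both belonged to IL-10- HDM, and all 4 groups overlapped. HDM minus control was 0.41 on the log2 scale in IL-10+ cells (SE 0.61, 95% interval -0.95 to 1.76, limma adjusted p = 1). In IL-10- cells it was -0.01 (SE 0.61, -1.36 to 1.35, limma adjusted p = 0.998), and -0.60 when IL-10- HDM array 3 was dropped. The intervals leave room for changes of more than a doubling either way in IL-10- cells. The second Il4ra probe, at base 5027, was above background on only 6 of the 12 arrays and ranged from -6.04 to -0.55, so it measured the gene poorly.

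Il13ra1, the chain that replaces the common gamma chain in the type II receptor, was near the detection limit. Its probe lay between -6.31 and -3.92 and was above background on 1 IL-10+ HDM array and 1 IL-10- HDM array. No fold change is given for it.

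Il2rg, the common gamma chain shared by the receptors for IL-2, IL-4, IL-7, IL-9, IL-15 and IL-21, was above background on all 12 arrays. Its level was 4.63, 5.18 and 4.84 in IL-10+ control, 5.06, 4.49 and 4.60 in IL-10+ HDM, 5.21, 5.24 and 5.02 in IL-10- control, and 5.03, 4.65 and 4.02 in IL-10- HDM. The IL-10- HDM arrays were mostly below the IL-10- controls, with the first overlapping the third control. HDM minus control was -0.59 in IL-10- cells (SE 0.36, -1.40 to 0.21, limma adjusted p = 0.621) and -0.17 in IL-10+ cells (SE 0.36, -0.97 to 0.64, adjusted p = 1). Scaling each array to its median in place of its 75th percentile turned the IL-10- difference to 0.05, and dropping IL-10- HDM array 3 moved it to -0.32 (adjusted p = 0.859).

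Il21r, the IL-21 receptor, gave the clearest separation of the member set. Its level was 1.77, 1.87 and 1.54 in IL-10+ control, 2.36, 2.54 and 1.80 in IL-10+ HDM, 2.71, 2.46 and 2.12 in IL-10- control, and 4.28, 3.89 and 4.08 in IL-10- HDM. All 3 IL-10- HDM arrays stood above the other 9. The groups ranked IL-10- HDM at 4.08 ± 0.20 (SD, n = 3), IL-10- control at 2.43 ± 0.30, IL-10+ HDM at 2.23 ± 0.39 and IL-10+ control at 1.72 ± 0.17, and the middle pair overlapped, as did both IL-10+ groups. In bulk samples such as these, fewer cells of a type and less RNA per cell cannot be told apart.

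In IL-10- cells Il21r was 3.14-fold higher in HDM than in control, a log2 difference of 1.65 (SE 0.33, 95% interval 0.91 to 2.40). The unadjusted p was 5.72e-04 and the limma adjusted p was 0.158, so it did not pass the threshold over all probes. The only control array on the same slide, IL-10- control 3, had the lowest of the control values. Within slide 2 the difference was 1.96 (SE 0.66), and with the slide as a fixed term it was 1.96 (SE 0.48, limma adjusted p = 0.408). Without IL-10- HDM array 3 it was 1.65 (limma adjusted p = 0.229). Leaving out each of the 12 arrays in turn gave 1.50 to 1.79. The summed level of the T cell markers was 0.96 to 2.01 in IL-10- HDM and 1.01 to 1.76 in IL-10- control. That of the NK cell markers was -0.04 to 0.71 and -1.85 to 1.06, so both overlapped between the groups. The plasmablast markers, at 7.03 to 8.26 in IL-10- HDM and 6.25 to 6.77 in IL-10- control, did not overlap. Neither did the marginal zone B cell markers, at 1.85 to 2.30 and 1.29 to 1.73. The sums add unlogged signals, so the plasmablast sum was mostly Irf4, whose mean level was 6.76. The other plasmablast markers had mean levels of 1.18 or lower. Of the 5 plasmablast markers, 3 to 4 were above background per array in IL-10- HDM and 3 to 5 in IL-10- control. The summed markers of the other listed cell types overlapped. The part of cell make-up in the Il21r difference was not tested.

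In IL-10+ cells Il21r was 0.51 higher in HDM (SE 0.33, -0.24 to 1.25, limma adjusted p = 1), and the groups overlapped. These 6 arrays all lay on slide 1. The difference between the HDM effects, IL-10+ minus IL-10-, was -1.14 (SE 0.47, -2.19 to -0.09, unadjusted p = 0.036, limma adjusted p = 0.758), where 0% of all probes were called and 6.49% had an unadjusted p under 0.05. An HDM effect that differs between the sorts was therefore not shown for Il21r. Averaged over both sorts, HDM minus control was 1.08 (SE 0.24, 0.55 to 1.61, limma adjusted p = 0.444), where 0 of 11 member probes and 0.00531% of all probes were called, and 1 member probe and 4.74% of all probes had an unadjusted p under 0.05.

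**Figure D2:**
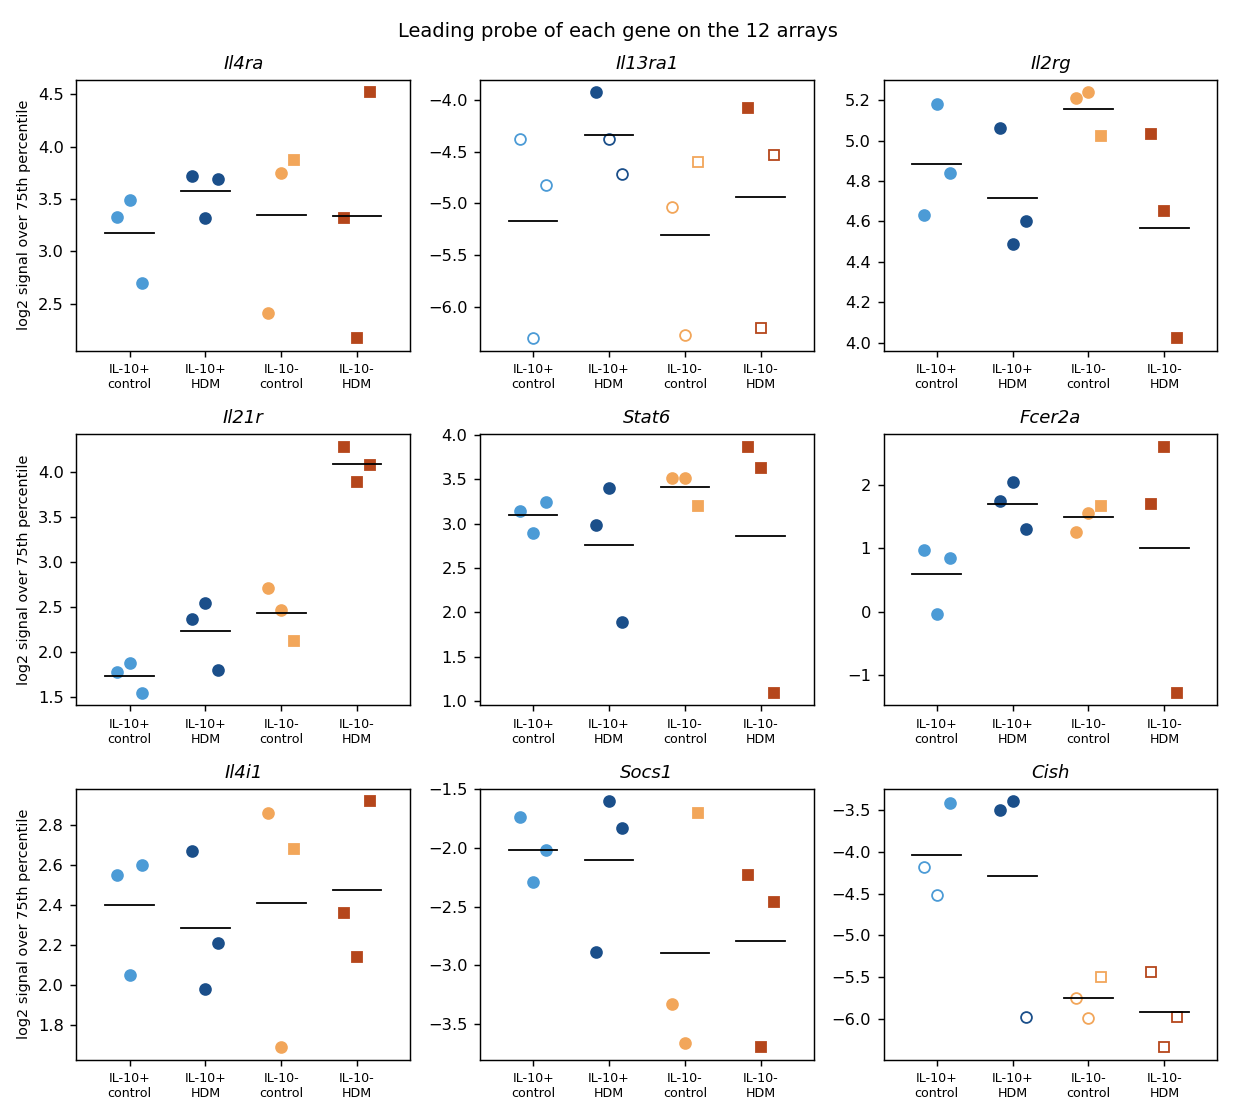
Level of the leading probe of each of the 9 genes on the 12 arrays (log2 signal over the array's 75th percentile, 1 point per array, bar at the group mean, n = 3 arrays per group). Circles are slide 1 and squares slide 2, and open symbols were not above background; Il21r in IL-10- HDM lies between 3.89 and 4.28, above the other 9 arrays.

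Between the sorts, Il21r was lower in IL-10+ than in IL-10- cells in both kinds of mouse. The arrays did not overlap in either. In control mice the difference was -0.71 (SE 0.33, -1.45 to 0.04, limma adjusted p = 1), and within slide 1 it was -0.86. In HDM mice Il21r was 3.6-fold lower in IL-10+ cells, a log2 difference of -1.85 (SE 0.33, -2.59 to -1.10, unadjusted p = 2.41e-04, limma adjusted p = 0.067). In HDM mice all IL-10+ arrays were on slide 1 and all IL-10- arrays on slide 2, so slide and sort cannot be told apart there. Averaged over both kinds of mouse the difference was -1.28 (SE 0.24, -1.81 to -0.75, limma adjusted p = 0.062). It passed the threshold under 3 other settings: normexp background correction gave -1.25 (adjusted p = 0.014), only probes above background on all 12 arrays gave -1.28 (0.034), and the slide as a random block gave -1.26 (0.039). With the slide as a fixed term 0 of the 37649 probes passed, so Il21r did not pass either. The random block had a slide correlation of -0.0499, and with it the calls over all probes rose from 130 to 230. Over all alternatives the adjusted p of Il21r ranged from 0.014 to 0.462.

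Over the sort comparisons, 0 of 11 member probes were called in control mice by limma, where 0.0159% of all probes were called. There 1 member probe, Cish, had an unadjusted p under 0.05, as did 4.14% of all probes. In HDM mice 0 of 11 were called where 0.197% of all probes were. Of the 11, 3 had an unadjusted p under 0.05 beside 13.2% of all probes (Il21r, the 3′ probe of Stat6 and Cish). Averaged over both, 0 of 11 were called where 0.345% were, with the same 3 at an unadjusted p under 0.05 beside 9.31% of all probes. Cish entered the tests only through IL-10+ arrays, so its p-values between the sorts are not read as a result. The arrays of the sorts did not overlap for 3 of 11 member probes in control mice (Il21r, Fcer2a and Cish, the last not above background on any IL-10- array), where this held for 9.5% of all probes. In HDM mice it held for 2 of 11 (Il21r and the 3′ probe of Stat6) and for 22.1% of all probes, with slide and sort joined.

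Stat6, the transcription factor of the pathway, gave different answers at its 3 probes. At the leading probe, base 2354, the level was 3.14, 2.90 and 3.24 in IL-10+ control, 2.98, 3.40 and 1.89 in IL-10+ HDM, 3.51, 3.52 and 3.20 in IL-10- control, and 3.87, 3.63 and 1.09 in IL-10- HDM. The lowest array of the 12 was IL-10- HDM array 3, and its 2 companions were the highest. HDM minus control was -0.34 in IL-10+ cells (SE 0.69, -1.86 to 1.18, limma adjusted p = 1), turning to 0.09 once IL-10+ HDM array 3 was dropped. In IL-10- cells it was -0.55 (SE 0.69, -2.07 to 0.98, adjusted p = 0.802), and it turned to 0.34 when IL-10- HDM array 3 was dropped.

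At the 3′ probe of Stat6, base 3450, IL-10- HDM stood higher. The level was 2.05, 3.11 and 1.87 in IL-10+ control, 2.49, 2.62 and 2.25 in IL-10+ HDM, 2.21, 2.54 and 2.98 in IL-10- control, and 3.42, 3.22 and 4.41 in IL-10- HDM. Each IL-10- HDM array was above the other 9. HDM minus control in IL-10- cells was 1.10 (SE 0.46, 0.09 to 2.12, unadjusted p = 0.036, limma adjusted p = 0.499), and IL-10+ minus IL-10- in HDM mice was -1.23 (SE 0.46, -2.24 to -0.21, adjusted p = 0.321). Within slide 2 the HDM difference was 0.70, and on dropping IL-10- HDM array 3 it was 0.74 (adjusted p = 0.739). At the 5′ probe, base 300, the same HDM comparison gave -2.95 (SE 1.95, -7.30 to 1.39, limma adjusted p = 0.642). It turned to 0.04 on dropping IL-10- HDM array 3, the only array on which this probe was not above background, at -6.22.

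On IL-10- HDM array 3 the 3′ probe of Stat6 had its highest level, 4.41, while the 5′ probe was not above background. On the other 11 arrays both were above background, and the 3′ minus the 5′ probe was between -1.24 and 2.31. Over 1547 transcripts with probes at least 1000 bases apart, the median 3′ minus 5′ difference was -0.19 on that array and between -1.51 and -1.07 on the others. The part of transcript position in the Stat6 and Fcer2a values of this array was not tested.

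**Figure D3:**
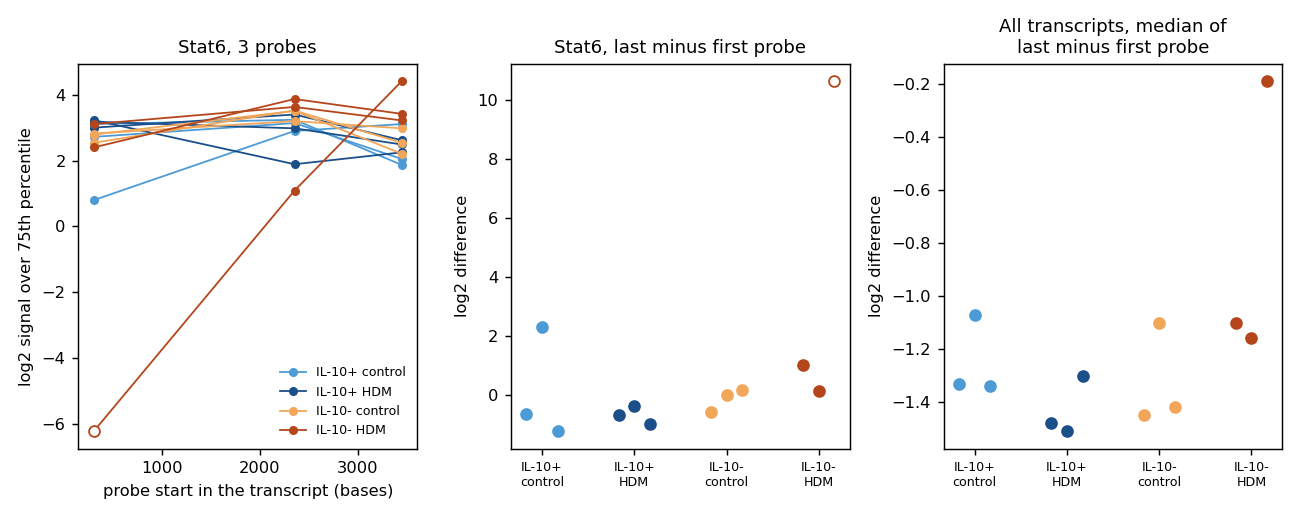
Left, level of the 3 Stat6 probes by where they start in the transcript, 1 line per array (log2 signal over the array's 75th percentile; open symbols rest on a probe not above background). Middle, the last minus the first Stat6 probe on each array, and right, the same difference as the median over 1547 transcripts; the open symbol of IL-10- HDM array 3 in the middle has no exact value, and the array lies at -0.19 on the right, where the others lie between -1.51 and -1.07.

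Fcer2a encodes CD23, the low-affinity IgE receptor that IL-4 raises on B cells. Its level was 0.97, -0.03 and 0.84 in IL-10+ control, 1.74, 2.04 and 1.30 in IL-10+ HDM, 1.26, 1.55 and 1.66 in IL-10- control, and 1.69, 2.60 and -1.28 in IL-10- HDM. The IL-10+ HDM arrays all lay above the IL-10+ control arrays, and the IL-10- HDM arrays held both the highest and the lowest value. In IL-10+ cells Fcer2a was 2.14-fold higher in HDM, a log2 difference of 1.10 (SE 0.82, -0.73 to 2.92, limma adjusted p = 1). Its arrays did not overlap there, and within slide 1 alone the difference was 1.10 with an SE of 0.40. All IL-10+ arrays lay on slide 1, so that fit compared the same arrays and changed only the estimate of spread. Under every alternative the limma adjusted p of this Fcer2a difference was at least 0.969.

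In IL-10- cells the Fcer2a difference was -0.49 (SE 0.82, -2.31 to 1.34, limma adjusted p = 0.859). Leaving out IL-10- HDM array 3 turned it to 0.65 (adjusted p = 0.773). The difference between the HDM effects was 1.58 (SE 1.16, limma adjusted p = 0.788) and 0.44 without that array. Among control mice Fcer2a was lower in IL-10+ than in IL-10- cells by arrays that did not overlap, with a log2 difference of -0.89 (SE 0.82, -2.72 to 0.94, adjusted p = 1). Adam10, the protease that sheds CD23 from the cell surface, differed by 1.13 in IL-10- cells (SE 0.62, adjusted p = 0.592; 0.63 on dropping IL-10- HDM array 3) and by -0.57 in IL-10+ cells (SE 0.62, adjusted p = 1). Neither passed the test.

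Il4i1, an IL-4-induced enzyme that oxidises aromatic amino acids, had group means close to each other. Its level was 2.55, 2.05 and 2.60 in IL-10+ control, 2.67, 1.98 and 2.21 in IL-10+ HDM, 2.86, 1.69 and 2.68 in IL-10- control, and 2.36, 2.14 and 2.92 in IL-10- HDM. The highest array was in IL-10- HDM and the lowest in IL-10- control, and all groups overlapped. HDM minus control was -0.12 in IL-10+ cells (SE 0.42, -1.05 to 0.82, limma adjusted p = 1) and 0.07 in IL-10- cells (SE 0.42, -0.86 to 1.00, adjusted p = 0.968; -0.16 on dropping IL-10- HDM array 3), and the intervals reached about a doubling either way.

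Socs1, an inhibitor that binds and blocks JAK kinases, was dim but above background on all 12 arrays. Its level was -1.74, -2.29 and -2.02 in IL-10+ control, -2.89, -1.60 and -1.83 in IL-10+ HDM, -3.33, -3.66 and -1.70 in IL-10- control, and -2.23, -3.70 and -2.46 in IL-10- HDM. The 3 IL-10+ control arrays were close together, the other groups were spread, and all groups overlapped. HDM minus control was -0.09 in IL-10+ cells (SE 0.61, limma adjusted p = 1) and 0.10 in IL-10- cells (SE 0.61, adjusted p = 0.967; -0.07 on dropping IL-10- HDM array 3). In slide 2 alone, where IL-10- control 3 is the single control, the IL-10- difference was -1.10. IL-10+ minus IL-10-, averaged over both kinds of mouse, was 0.78 (SE 0.43, -0.17 to 1.74, limma adjusted p = 0.617).

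Cish, whose product CIS is a STAT5-induced inhibitor of cytokine receptors, was above background on 3 of the 12 arrays, all IL-10+. Its level was -4.18, -4.51 and -3.42 in IL-10+ control, -3.50, -3.39 and -5.98 in IL-10+ HDM, -5.75, -5.99 and -5.50 in IL-10- control, and -5.44, -6.34 and -5.97 in IL-10- HDM. The 6 IL-10- arrays were all at or below -5.44 as measured, and 5 of the 6 IL-10+ arrays lay above them. On 9 of the 12 arrays the probe was not above background, and it entered the tests only through IL-10+ arrays. No fold change or test of Cish is therefore given outside the counts of probes and the plotted HDM comparison.

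The rest of the pathway was read through 60 genes: ligands, other receptor chains, kinases, other STATs, adaptors and phosphatases, regulators, IL-4 response genes and partners of CD23. Of these, 51 were tested; the ligands Il4, Il13, Il21, Il7 and Il15 were among the 9 that were not above background on enough arrays. For HDM against control, 0 of 51 were called by limma in either sort, where 0.00531% of all probes in IL-10+ cells and 0.0717% in IL-10- cells were. In IL-10+ cells 1 of the 51 had an unadjusted p under 0.05, beside 2.18% of all probes, and in IL-10- cells 8 did, beside 9.4%. The median log2 difference of the 51 was -0.18 in IL-10+ cells, beside 0.08 over all probes, and 0.07 in IL-10- cells, beside -0.10.

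Among the 11 tested IL-4 response genes, 8 were higher in HDM in IL-10- cells, with a median of 0.42. There 45.6% of all probes were higher, and 56.6% of probes above background on all 12 arrays. With arrays scaled to their median, a scaling not used for the 8, 69.7% of all probes were higher. For Xbp1 and Ccl17 the sign rested on IL-10- HDM array 3, at 0.93 and -1.50. Their other IL-10- HDM arrays lay below the control means of -2.43 and -2.97. The count and median without that array were not computed. In IL-10+ cells 7 of the 11 were higher, with a median of 0.07, where 56.3% of all probes were. The medians of the other 7 pathway lists in IL-10- cells lay between -0.49 and 0.18. The pathway genes with the smallest p there were H2-Ab1, an MHC class II beta chain, and Pias1, a SUMO ligase that restrains STAT activity. H2-Ab1 was at 2.65, 2.52 and 2.12 in IL-10- control and at 3.60, 3.73 and 5.43 in IL-10- HDM, a difference of 1.83 (SE 0.51, limma adjusted p = 0.335) and, on dropping IL-10- HDM array 3, of 1.24 (adjusted p = 0.43). Pias1 differed by 1.28 (SE 0.36, adjusted p = 0.339). Averaged over both sorts the smallest p belonged to Stat2, whose probe was above background on 4 arrays, all control (adjusted p = 0.924), and to H2-Aa, the MHC class II alpha chain, at 0.78 (adjusted p = 0.984).

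In IL-10+ cells the smallest p belonged to Il7r, the IL-7 receptor chain that pairs with Il2rg. Its level was -3.29, -2.80 and -1.81 in IL-10+ control and -6.35, -6.05 and -6.23 in IL-10+ HDM, where no array was above background. By the group means as measured, Il7r was at least 2.61-fold lower in HDM, a difference that was not called (limma adjusted p = 1). In IL-10- HDM it was -0.59, -1.58 and -1.85, so it was at least 6.39-fold lower in IL-10+ than in IL-10- cells of HDM mice (limma adjusted p = 0.067, with slide and sort joined). That fit passed the threshold when array 1 (adjusted p = 0.041) or array 3 (0.019) of IL-10- control was dropped. Those control arrays are not part of the comparison, so dropping them left its difference unchanged and altered only the estimate of spread. With the slide as a fixed term 0 of the 37649 probes passed there, Il7r included. The at-least folds of Il7r set the mean of the brighter group against a floored mean of the dimmer one. On each dimmer array the floor took the higher of its own signal and the lowest signal the scanner marked above background. Such folds allow for the detection limit but not for the spread between arrays. The difference between the HDM effects had its smallest p in the list for Il7r (adjusted p = 0.629), with no exact size as IL-10+ HDM was not above background, and then for H2-Ab1, at -2.11 (SE 0.72, adjusted p = 0.711) and at -1.52 on dropping IL-10- HDM array 3. Ccl17, a chemokine that IL-4 induces, came next in IL-10+ cells at 2.29 (SE 1.19, adjusted p = 1), and at 0.68 without IL-10+ control array 2, where it was not above background.

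**Figure D4:**
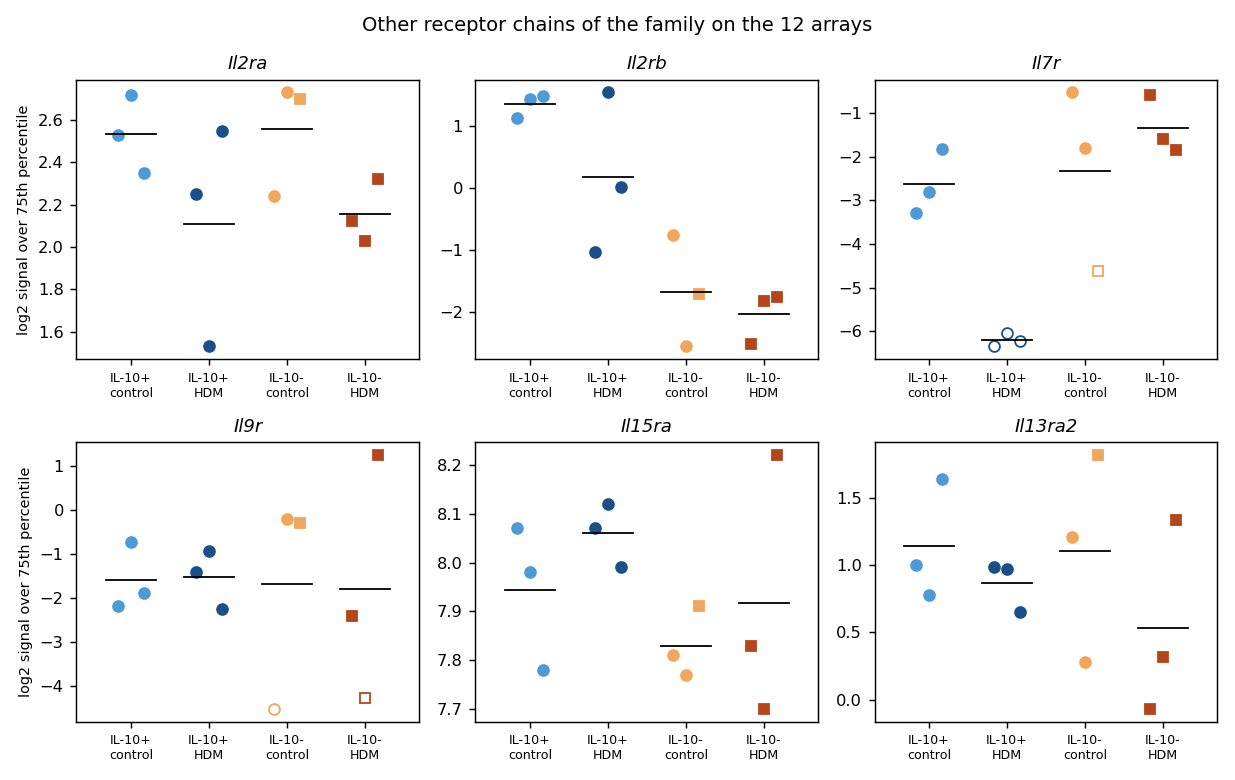
Level of 6 other receptor chains of the family on the 12 arrays (log2 signal over the array's 75th percentile, 1 point per array, bar at the group mean; circles slide 1, squares slide 2, open symbols not above background). Il7r lies at -6.35 to -6.05 in IL-10+ HDM, not above background on any of the 3 arrays. Il2rb is higher in the IL-10+ groups, with IL-10+ HDM array 1 overlapping the IL-10- arrays.

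Between the sorts 1 pathway gene of 51 was called in HDM mice and averaged over both kinds of mouse, where 0.197% and 0.345% of all probes were, and 0 of 51 in control mice, where 0.0159% were. Ccl22, a chemokine for CCR4-bearing T cells that IL-4 induces, was at 4.10, 4.82 and 4.12 in IL-10+ control, 4.16, 4.38 and 4.21 in IL-10+ HDM, 0.73, 1.44 and 0.24 in IL-10- control, and -1.72, 0.62 and -1.28 in IL-10- HDM. Every IL-10+ array was above every IL-10- array. Averaged over both kinds of mouse it was 19.6-fold higher in IL-10+ cells, a log2 difference of 4.29 (SE 0.42, limma adjusted p = 0.0067), and 3.73 (SE 0.73, adjusted p = 0.253) with the slide as a fixed term. In HDM mice the difference was 5.04 (SE 0.59, adjusted p = 0.015), which did not pass with the slide as a fixed term (4.20, adjusted p = 0.39) or when IL-10- HDM array 3 was left out (4.80, adjusted p = 0.059). Leaving out IL-10+ HDM array 1, 2 or 3 also took it past 0.05, to adjusted p-values of 0.053, 0.082 and 0.059. In control mice it was 3.54 (SE 0.59, adjusted p = 0.201), followed by Il2rb, the shared IL-2 and IL-15 receptor beta chain, at 3.03 (SE 0.66, adjusted p = 0.341).

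The kinases that couple the receptor to STAT6 were not called in either HDM comparison. Jak1 was -0.74 in IL-10+ cells (SE 0.65, limma adjusted p = 1), and -0.33 without IL-10+ control array 2. Its arrays did not overlap there, which held for 9.73% of all probes. In IL-10- cells Jak1 was 0.44 (SE 0.65, adjusted p = 0.838). Without the third IL-10- HDM array that difference turned to -0.28 (adjusted p = 0.93). Jak3 was 0.18 in IL-10+ cells (SE 0.46, adjusted p = 1) and -0.87 in IL-10- cells (SE 0.46, adjusted p = 0.578). Its IL-10- HDM arrays were all below the controls, where 12.2% of all probes had arrays that did not overlap.

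Profiles most like those of 3 members were ranked by Pearson's r over the 12 arrays among 7854 other named genes above background on all arrays; the arrays share groups and slides, so r is a description. Il4ra was closest to D3Ertd751e (r = 0.911), Klhdc7a (0.906) and Ralgps1 (0.903). Stat6 at its leading probe was closest to Ankrd10 (0.943), Kctd5 (0.928) and Cacfd1 (0.913), which fell to 0.851, 0.821 and 0.784 without IL-10- HDM array 3. Fcer2a was closest to D17Zt10e (0.95), Arhgef1 (0.94) and Parp1 (0.924), and these were 0.881, 0.846 and 0.818 without that array. The likeness of Stat6 and Fcer2a profiles to these genes thus rested in part on 1 array.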

How the data were processed

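Per the labels' protocols, mRNA of the sorted cells was isolated on magnetic beads, amplified as cDNA by PCR with the SuperAmp method and labelled with Cy3. Agilent design 028005, annotated on mm9, was scanned and read by Feature Extraction 10.7.3.1, per the file headers. Intensity values fill the deposited scanner files: the processed signal, background-subtracted and detrended but not normalised between arrays, and the mean spot signal and local background. They also hold per-spot flags, which per the file headers are other values and not intensities. The deposited value table is a ratio, the processed signal over the array's median, as recomputation showed to within 0.00077%. PCR amplification from few cells can distort levels between genes and between parts of a transcript. No spot was saturated, and as arrays give no counts, the 3 arrays of a group limit the precision.

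Control spots and outlier flags were left out, spots of a probe were averaged, and the log2 processed signal was centred on each array's 75th percentile. limma 3.58.1 in R 4.3.3 (lmFit, eBayes) was fitted with 4 group means on all 12 arrays, with 8 residual and 2.15 prior degrees of freedom; it was tested on simulated data. Intervals are 95%. The members and lists were chosen with earlier results of these data known. Every member probe is named. From the pathway list, the rule named up to 3 called genes per comparison, or, where none was called, the 2 with the smallest p, and always Jak1, Jak3 and Adam10; Il2rb and Il7r levels serve the receptor plot. Probe letters are from the scanner files, and promoter letters from RefSeq on GRCm38.p6.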

Additional observations from a re-analysis of the deposited data

How the results depend on the processing

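Of the log2 differences named above, 35 were counted over the 24 alternatives. Of these, 18 kept their sign and their side of the adjusted p of 0.05 under all 24, and 13 changed sign under at least 1. Not in this count were Il7r, H2-Aa, H2-Ab1 between the HDM effects, and Fcer2a, Ccl22 and Il2rb between the sorts in control mice. The count of member probes called by limma moved from 0 to 1 in HDM mice between the sorts under normexp background correction and with the slide as a random block. Averaged over both kinds of mouse it moved from 0 to 1 under those settings and with probes above background on all 12 arrays, and the probe was Il21r each time. Leaving out 1 array in turn gave 0 to 1 called, the 1 being Cish without IL-10+ HDM array 3, a probe that entered the tests only through IL-10+ arrays. In HDM mice Il21r was then -1.78 with normexp and -1.82 with the random block.

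For HDM against control in IL-10- cells, scaling to the array median turned Fcer2a to 0.16, the leading Stat6 probe to 0.10, Il4ra to 0.64 and Il2rg to 0.05; that scaling moves the median of all probes by 0.65 there and by -0.29 in IL-10+ cells. The slide as a random block turned Il4ra to 0.03. Il4i1 became -0.30 with quantile normalisation and -0.20 with the slide as a fixed block or within slide 2, and Socs1 became -1.10 in both of the latter. Single arrays turned the sign as well, with ranges when each was left out of -1.29 to 0.65 for Fcer2a, -1.05 to 0.34 and -4.63 to 0.04 for the leading and the 5′ probe of Stat6, -0.60 to 0.58 for Il4ra, -0.29 to 0.29 for Il4i1, -0.28 to 0.70 for Socs1 and -0.28 to 1.06 for Jak1. In IL-10+ cells the ranges were -0.66 to 0.09 for the leading Stat6 probe, -0.31 to 0.04 for Il4i1, -0.34 to 0.30 for Socs1, -0.13 to 0.66 for Jak3 and -1.0 to 0.06 for Adam10, and median scaling turned Jak3 to -0.11. The cause of these moves was not tested beyond the arrays left out.

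With the replicate block, 0 of 11 member probes were called in each comparison, and Il21r in IL-10- cells stayed at 1.65 (adjusted p = 0.242). Over all probes the block lowered the calls from 27 to 1 there and from 130 to 66 for the sort averaged over both kinds of mouse. Deviations of same-numbered arrays from their group means correlated at -0.116 to 0.123, beside -0.162 to 0.0962 for arrays with different numbers. Whether same-numbered arrays share an animal or culture cannot be told from these values. Probes near background (Il13ra1, Cish, the 3′ probe of Il4ra) could not show differences below the scanner's limit.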
